A study of Homo sapiens with 12 samples.

Results

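USP22 was depleted with an inducible short hairpin RNA in LNCaP cells, a human prostate cancer line that responds to androgen, and RNA sequencing was used to ask which transcripts followed its loss. The comparison used 6 of the 12 libraries of the series: 3 of cells with a control shRNA (shControl) and 3 of cells with an shRNA against USP22 (shUSP22-4693), chosen by their labels. Every gene that passed a filter on low counts was kept, 26076 in all. Both groups were grown in hormone-proficient medium and received doxycycline at 1 ug/mL every 48 hours over 5 days, so the antibiotic and the induction are common to them. The other 6 libraries, a vector control (pLPLUC) and cells overexpressing USP22, for neither of which the labels give doxycycline, entered the fit and are shown where a level needs a reference. The depletion rests on a single shRNA sequence in a single cell line. The labels do not say whether the shUSP22-4693 cells were a clone or a pool, so a difference carried by that cell population and the loss of USP22 cannot be told apart. The labels also do not say whether the 3 replicates of a group were separate cultures, so the spread behind the p-values may be only technical.

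USP22 is a ubiquitin protease. It sits in the deubiquitinase module of SAGA, a coactivator complex that is brought to promoters by transcription factors, and it removes ubiquitin from histone H2B and from other proteins. Its partners ATXN7L3 and ENY2 are needed for its activity. In prostate cancer cells androgen signalling drives the luminal programme, including the kallikrein genes, while MYC and the E2F factors drive growth and division.

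The shRNA control libraries held 84906477 to 103690001 counted reads and the depletion libraries 77607469 to 94000750, so counting error is small for all but low genes. Levels are given as CPM, counts scaled to the same library size, which also scale with transcript length and are compared between samples, not between genes. The median SD of log2 CPM between replicates was 0.117 in the shRNA control and 0.126 after depletion. Genes of the mitochondrial genome took 1.08 to 1.4% of reads in the former and 1.27 to 1.53% in the latter. Of the 10 markers of luminal prostate epithelium all were tested, and their summed level was 6590 to 6790 CPM in the control and 4730 to 5250 CPM after depletion. KLK3 made up most of that difference, while FOLH1, the prostate-specific membrane antigen, went the other way, from 1178, 1189 and 1151 to 1391, 1514 and 1332 CPM, and HOXB13 overlapped between the groups. Markers of basal epithelium, fibroblasts and smooth muscle, leukocytes, endothelium and neuroendocrine cells summed to at most 19.7 CPM per class in any of the 6 libraries. Those of endothelium, of which 2 of 7 were tested, summed to 8.7 to 9.7 CPM in the control and 12.8 to 15.4 CPM after depletion, but they went opposite ways. VWF went from 6.61, 6.634 and 7.687 to 12.48, 14.65 and 11.92 CPM and EMCN from 1.904, 2.437 and 1.855 to 0.6945, 0.5969 and 0.7333 CPM. Within bulk RNA, fewer cells of a kind and less RNA per cell cannot be told apart.

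USP22 followed its labels. It stood at 479.6, 473.4 and 479.7 CPM in the 3 shRNA control libraries and at 256.9, 265.3 and 250.6 CPM in the 3 depletion libraries. All depletion values lay well below all control values, at 0.539 of the control mean (log2 fold change -0.89, SE 0.06, edgeR adjusted p = 5.41e-08), so a sizeable part of the transcript remained. With 3 libraries against 3, the smallest p of an exact two-sided permutation test is 0.1, and the calls that follow come from the edgeR fit across all genes.

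No other gene of the deubiquitinase module passed the test. ENY2, a small subunit of the module, was at 34.98, 37.65 and 35.54 CPM in the control and 41.44, 42.73 and 38.18 CPM after depletion (log2 fold change 0.18, adjusted p = 0.0593). ATXN7L3, the adaptor that activates USP22, went from 39.03, 36.26 and 36.5 to 35.12, 35.32 and 33.95 CPM (log2 fold change -0.10, adjusted p = 0.521). The ENY2 values did not overlap between the groups, and neither did those of ATXN7L3, but both differences missed the threshold. USP51, another protease that can use these adaptors, had a log2 fold change of -0.37 (adjusted p = 0.101), ATXN7L3B 0.11 (0.19), ATXN7L1 -0.12 (0.368), ATXN7L2 -0.12 (0.504) and ATXN7 0.02 (0.874). The result for ENY2 depended on the procedure: it was called as a rise under RLE scaling, the strict filter and DESeq2, in the 6 shRNA libraries alone, with protein-coding genes alone, and without vector control replicate 3, shRNA control replicate 2 or depletion replicate 3. ATXN7L3B was called with protein-coding genes alone. Of the 15 genes of the SAGA core and its acetyltransferase module, 1 rose and 1 fell (median log2 fold change 0.02). The rise, of TAF12 (0.23), was lost without shRNA control replicate 1 or 3 or depletion replicate 1 or 2, and the fall, of TADA3 (-0.27), without any 1 replicate of either group. Without vector control replicate 3 there were 4 rises and 3 falls.

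Depletion changed 5172 of the 26076 tested genes, 19.8% (edgeR, Benjamini-Hochberg adjusted p under 0.05). Of these 2450 rose (9.4% of tested genes) and 2722 fell (10.4%). Most changes were modest. Genes that rose had a median ratio of 1.33 to the control and genes that fell one of 0.715, and 825 genes (3.16%) changed at least 2-fold, 236 upward (0.905%) and 589 downward (2.26%). At 4-fold or more the counts were 36 up and 151 down. Replicates of the groups did not overlap in 10891 genes (41.8%). Protein-coding genes were called more often than other classes: 13.4% of 14870 rose and 14.9% fell, against 4.89% and 5.73% of 5132 long noncoding genes and 3.02% and 4.0% of 3747 pseudogenes, which also have fewer reads. Which direction held more genes changed with the procedure. With the strict filter of 1 CPM in 3 libraries 2689 rose and 2511 fell, and the genes past 2-fold numbered 352. Vector control replicate 3 belongs to neither of the groups compared but is part of the fit, and without it 8359 genes were called, the 5172 among them. It stood apart from its replicates, at 44.9 on the second principal component of log2 CPM against 7.1 and 7.6. The median SD between vector control replicates was 0.228, beside 0.117 and 0.126 in the shRNA groups. With the 6 shRNA libraries alone 8115 genes were called.

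**Figure D1:**
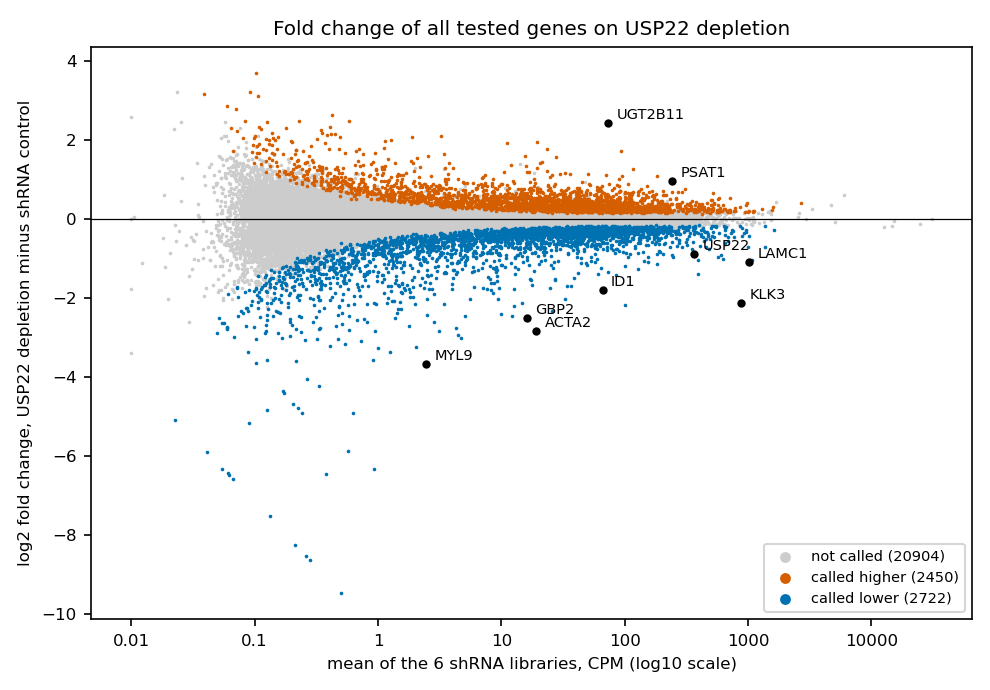
Log2 fold change on USP22 depletion (vertical axis) against the mean level of the 6 shRNA libraries in CPM (horizontal axis, log scale) for the 26076 tested genes; orange points rose, blue points fell and grey points were not called. The cloud is centred on 0 and reaches farther down than up, with 589 genes at least 2-fold lower and 236 at least 2-fold higher; fitted folds at the low end rest on few reads.

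The largest falls among well-measured genes mixed muscle-type cytoskeletal, interferon-inducible and secretory genes. ACTA2, the smooth muscle actin, had 34.23, 34.95 and 32.15 CPM in the control and 5.28, 4.415 and 4.46 CPM after depletion (log2 fold change -2.84, SE 0.11, edgeR adjusted p = 1.54e-10). AGR2, a disulfide isomerase of secretory epithelia, went from 42.55, 47.21 and 39.37 to 9.253, 9.632 and 6.876 CPM (-2.32, adjusted p = 6.78e-10). In each of these genes every depletion library was below every control library by several fold. MDGA1, a membrane-anchored glycoprotein, fell from 17.4, 15.81 and 16.89 to 3.411, 2.902 and 3.222 CPM (-2.39), but stood at only 1.346, 1.645 and 1.381 CPM in the vector control, so its depleted level lay between those of the control lines. SYT4, a synaptotagmin, fell from 174.0, 171.1 and 148.3 to 35.61, 39.36 and 33.73 CPM (-2.18), CLU, the chaperone clusterin, from 21.01, 22.05 and 19.41 to 4.586, 4.497 and 4.664 CPM (-2.18), and TMSB4X, which binds actin monomers, from 24.32, 25.35 and 22.22 to 5.781, 5.547 and 5.217 CPM (-2.12). The other large falls included GBP2, GBP1, KLK3 and ID1, described with their groups, the zinc finger gene ZNF608 (-2.44), the small heat shock protein gene HSPB8 (-2.03), PGC, which encodes a pepsinogen (-2.03), and DDC, the aromatic amino acid decarboxylase (-1.86).

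Among called genes changed at least 1.5-fold, the largest losses in CPM lay in abundant transcripts, after KLK3. LAMC1, the laminin gamma chain, went from 1404, 1391 and 1352 to 663.8, 684.6 and 607.8 CPM (log2 fold change -1.08). FLNA, the actin crosslinker filamin A, went from 862.2, 821.6 and 823.4 to 429.6, 404.7 and 407.5 CPM (-1.01). The nuclear long noncoding RNA NEAT1, the scaffold of paraspeckles, went from 1419, 1431 and 1456 to 704.4, 611.2 and 803.1 CPM (-1.02), close to the 615.9 CPM it averaged in the vector control. LIMCH1, which binds myosin, and LRBA, which acts in vesicle trafficking, fell by 0.71 and by 0.70 on the log2 scale.

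Rises were led by enzymes of steroid conjugation. The lysosomal fucosidase FUCA2 went from 7.795, 8.021 and 7.421 to 23.19, 25.6 and 22.12 CPM (log2 fold change 1.61, edgeR adjusted p = 2.18e-09), and the coagulation factor F5 from 11.38, 10.28 and 12.39 to 30.59, 30.5 and 32.24 CPM (1.45). HLF, a bZIP transcription factor of circadian output, went from 13.87, 14.11 and 13.82 to 32.92, 33.64 and 31.61 CPM (1.23). None of these genes overlapped between the groups, and in each the vector control mean was below the depleted level. Other large rises were RALYL, an RNA-binding protein (1.57), SLITRK3, a synaptic adhesion protein (1.44), NIBAN1 (1.36), the cadherin CDH26 (1.31), the matrix metalloproteinase MMP16 (1.27) and H2BC26, a histone H2B gene (1.21). ASS1P13 (1.38) is a pseudogene whose reads can be shared with its parent gene. Among called genes changed at least 1.5-fold, the largest gain in CPM was that of the lactate dehydrogenase subunit LDHB, from 395.1, 411.8 and 392.8 to 623.2, 665.7 and 599.3 CPM (0.65). CENPF, PSAT1 and the histone gene H1-2, described with their groups, came next, then BCHE, the butyrylcholinesterase, from 113.2, 122.4 and 113.0 to 239.2, 267.3 and 242.7 CPM (1.10), and the histone gene H1-4.

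**Figure D2:**
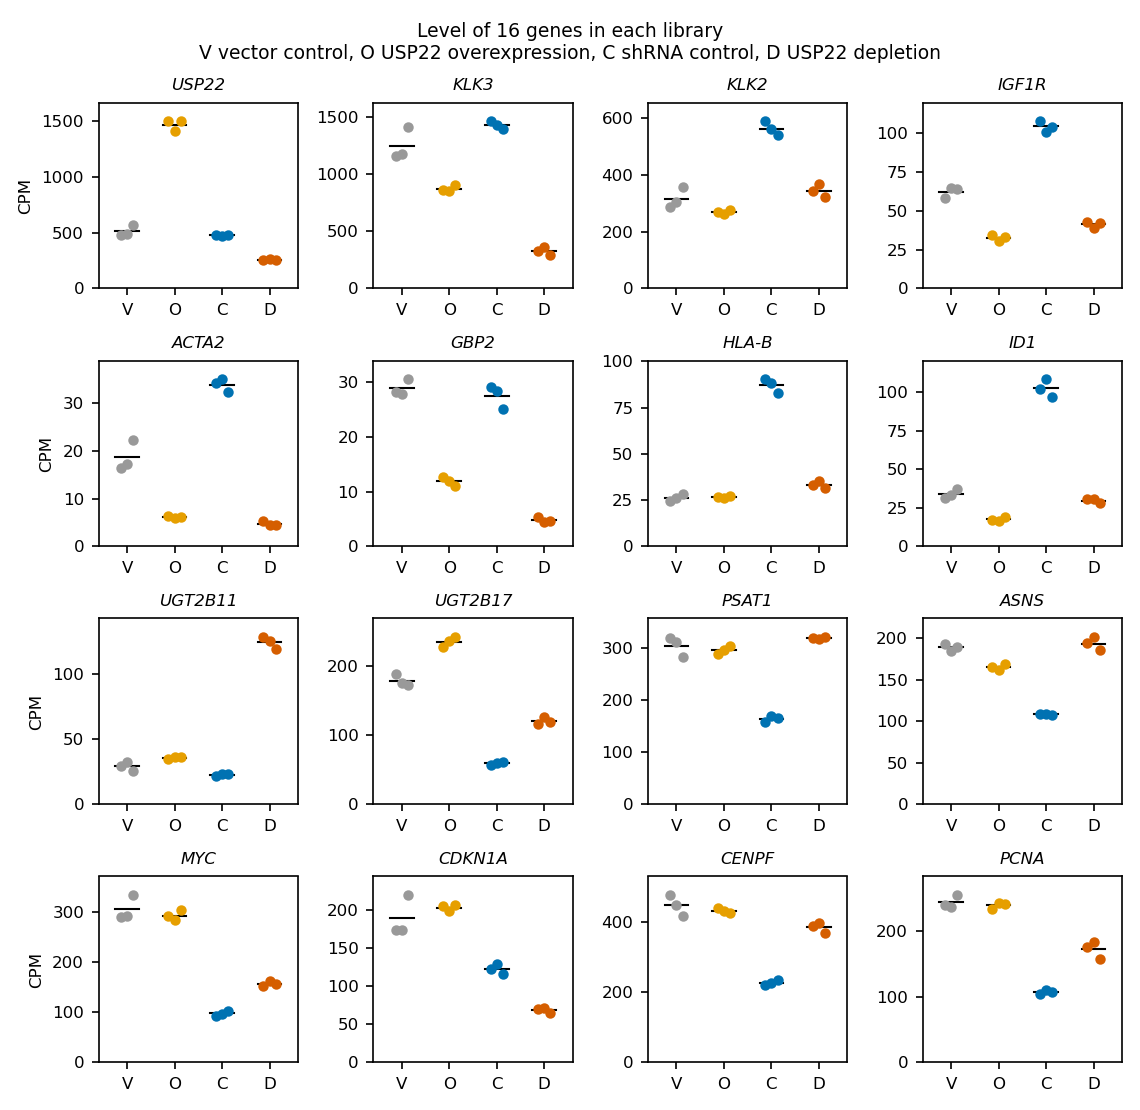
Level in CPM (vertical axes, linear, from 0) of 16 genes in each of the 12 libraries by group; points are libraries and bars group means. The shRNA control and depletion points do not overlap in any of the 16 panels; KLK3 after depletion, at 290.4 to 358.0 CPM, also lies below the vector control, whereas PSAT1 after depletion, at 318.1 to 321.6 CPM, lies near it.

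The shRNA control is the only baseline of the depletion, and it differed from the vector control in 11211 genes, 43.0% of those tested, 5665 higher (21.7%) and 5546 lower (21.3%). That comparison shares the shRNA control libraries with the depletion, so the values of both are set side by side and nothing is read from their likeness. The labels give doxycycline and a time for the shRNA groups alone, and the parts of construct and treatment in this difference cannot be told apart. For the gene groups that follow, the level in the vector control is given beside the change, because some depleted levels lay closer to the vector control than the shRNA control did, and others lay outside both.

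Androgen-regulated genes fell more often than they rose. KLK3, which encodes prostate-specific antigen, had 1464, 1426 and 1394 CPM in the control and 330.4, 358.0 and 290.4 CPM after depletion (log2 fold change -2.13, SE 0.08, edgeR adjusted p = 1.54e-10), against 1155, 1172 and 1413 CPM in the vector control. KLK2, a related kallikrein protease, went from 589.7, 561.3 and 539.2 to 341.8, 368.8 and 321.3 CPM (-0.71, adjusted p = 6.14e-06), with a vector control mean of 315.7 CPM. KLK3 after depletion was thus lower than in either control line, whereas KLK2 lay near its vector control level. KLK4 fell by 0.22 (adjusted p = 0.0445), a call that was lost without any single replicate of either group (adjusted p 0.109 to 0.159) and under RLE scaling (0.0542), and KLK15 was not called.

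Of 40 tested androgen-regulated genes outside the kallikreins 21 fell and 7 rose, with a median log2 fold change of -0.28 against 0.00 over all tested genes. TRPM8, a cold-sensing channel, had 20.47, 19.9 and 18.59 CPM in the control and 6.036, 5.979 and 5.205 CPM after depletion (-1.77). EAF2, an elongation factor partner, went from 28.13, 27.49 and 25.44 to 8.558, 8.408 and 8.547 CPM (-1.67), beside 8.13 CPM in the vector control. ADAMTS1, a secreted metalloproteinase, went from 576.7, 571.9 and 558.7 to 223.4, 223.8 and 206.3 CPM (-1.39, adjusted p = 1.71e-10), beside 879.5 CPM in the vector control. PMEPA1, which restrains SMAD signalling, fell by 0.96, FKBP5, an HSP90 cochaperone, by 0.53, and RAB3B by 0.60 on the log2 scale, while STEAP2 was not called. Against the vector control, 22 of the 40 targets were higher and 12 lower in the shRNA control, with a median of 0.25. The count of rises was 4 without shRNA control replicate 1 or without depletion replicate 2. The falls numbered 15 without shRNA control replicate 1 or 2 or depletion replicate 3, and 25 without vector control replicate 3.

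Luminal lineage genes moved in the same direction, without their central factors. Of 18 genes 10 fell and 2 rose, with a median of -0.22. GRHL2, a transcription factor of epithelial identity, went from 370.3, 355.7 and 348.5 to 223.7, 222.1 and 215.7 CPM (-0.70). KRT8, the luminal keratin, went from 369.1, 379.3 and 366.0 to 248.7, 272.1 and 233.4 CPM (-0.56), and KRT19 fell by 1.26, GATA2 by 0.62 and ACP3, the prostatic acid phosphatase, by 0.52. The pioneer factor FOXA1 (log2 fold change 0.08, edgeR adjusted p = 0.434) and HOXB13 (0.07, 0.579), a homeobox factor of the prostate, were not called. Of 14 tested neuroendocrine and neuronal genes 3 fell and none rose, beside 14.9% and 13.4% of tested protein-coding genes. The neuroendocrine markers proper were near 0, summing to 2.84 to 3.85 CPM.

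The UDP-glucuronosyltransferases of the UGT2B family, some of which inactivate androgens by attaching glucuronic acid, and their partner enzymes had the highest median rise of the 60 lists. Of 9 tested genes 7 rose and none fell, with a median of 1.73. The 7 rises and no fall held under every alternative run, with 8 genes tested under the strict filter and in the 6 shRNA libraries alone. UGT2B11 had 21.84, 23.12 and 23.5 CPM in the control and 128.3, 125.2 and 119.2 CPM after depletion, a 5.45-fold rise (log2 fold change 2.45, SE 0.08, edgeR adjusted p = 3.87e-11). UGT2B15 went from 41.02, 44.33 and 44.17 to 138.3, 151.3 and 140.3 CPM (1.73), and UGT2B17, known with it for clearing androgens from prostate cells, from 56.53, 60.31 and 60.7 to 116.7, 126.6 and 119.8 CPM (1.03). UGT2B28 rose from 9.735, 11.03 and 10.91 to 38.39, 36.34 and 34.1 CPM (1.78). The groups did not overlap in any of these genes. UGT2B10 rose by 1.96, UGT2B4 by 2.09 and UGT2B7 by 1.36 on the log2 scale, the last 2 from under 1 CPM, while UGT2A3 and UGDH, which makes the cofactor, were not called. The members did not share a starting point. In the vector control UGT2B11 averaged 29.11 and UGT2B28 11.55 CPM, so the depleted cells exceeded both control lines, whereas UGT2B15 averaged 170.7 and UGT2B17 178.8 CPM there, above the depleted cells. These genes are near-identical copies in a cluster, and how shared reads were counted is not given, so values of single members are uncertain.

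Other enzymes of androgen synthesis and inactivation changed in both directions, 2 up and 5 down of 16, with a median of 0.01. Among tested protein-coding genes 13.4% rose and 14.9% fell. HSD17B11 fell by 0.73, the steroid sulfatase STS by 0.43 and SRD5A1, a 5 alpha-reductase, by 0.33 on the log2 scale, and the retinol reductase RDH11 rose by 0.32. The falls numbered 3 without shRNA control replicate 2 or 3, and without depletion replicate 1 or 3.

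Genes of cell division rose almost as a block. The G2 and mitosis list had 50 rises and no fall among 52, with a median log2 fold change of 0.59, and in all 52 the depletion replicates lay above the control replicates, which 20.3% of tested genes did. The kinetochore gene CENPF had 219.9, 226.4 and 234.8 CPM in the control and 387.9, 396.8 and 369.8 CPM after depletion (0.76, edgeR adjusted p = 1.56e-07). PTTG1, the securin, went from 33.93, 38.83 and 37.36 to 66.78, 72.33 and 63.25 CPM (0.88), and CCNB1, the mitotic cyclin, from 96.28, 105.2 and 101.3 to 154.9, 166.9 and 145.8 CPM (0.63). The checkpoint kinase BUB1 rose by 0.77 and the centrosomal kinase NEK2 by 0.72 on the log2 scale. The exceptions were the motor CENPE (0.29, adjusted p = 0.0847) and the kinase TTK (0.26, 0.121). All 52 were called higher with the 6 shRNA libraries alone, without vector control replicate 3, and with no filter on low counts. None of these levels reached those of the vector control, where CENPF averaged 447.1, PTTG1 93.15 and CCNB1 244.0 CPM. Set to 0 at the mean of the shRNA control, the median gene of the list stood at 0.57, 0.64 and 0.51 log2 units in the 3 depletion libraries and at 1.03, 0.98 and 0.94 in the 3 vector control libraries.

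The promoters of these genes are known for 2 elements, the cell cycle homology region, which the DREAM and B-MYB complexes bind, and the CCAAT box, bound by NF-Y. In RefSeq promoters of 300 bases on GRCh38.p14, searched on both strands, the letters TTTGAA occurred in 32 of the 44 promoters found for the list, 72.7%, against 15.4% of all 27303 promoters. CCAAT occurred in 36 of 44, 81.8%, against 35.7%. A match is a run of letters and not a measured site. Here and for the lists below, promoters were searched whether or not a gene was called. Such shares describe the list and not the depletion. The promoter of TOP2A, the topoisomerase of chromosome condensation, is printed because it carries the first element on each strand. TOP2A was among the called members with the smallest edgeR p whose printed window holds that element. TOP2A was picked for its promoter after its values were seen, and it rose from 133.4, 146.2 and 141.1 to 218.2, 231.7 and 210.6 CPM (log2 fold change 0.65). The window is chr17:40417867-40418146, minus strand, 250 bases before to 30 after the start, with TTTGAA or its reverse complement in capitals.
TOP2A: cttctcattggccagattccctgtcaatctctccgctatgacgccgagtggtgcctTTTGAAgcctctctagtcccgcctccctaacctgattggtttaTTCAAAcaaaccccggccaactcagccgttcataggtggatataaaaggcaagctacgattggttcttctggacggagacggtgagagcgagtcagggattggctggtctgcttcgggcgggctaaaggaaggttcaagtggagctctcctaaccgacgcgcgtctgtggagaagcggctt

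DNA replication genes followed mitosis, with 35 of 41 higher, none lower and a median of 0.43. PCNA, the sliding clamp, had 105.0, 110.8 and 107.8 CPM in the control and 176.2, 183.8 and 157.7 CPM after depletion (0.68, edgeR adjusted p = 1.03e-06). RRM2, the regulated subunit of ribonucleotide reductase, went from 114.3, 119.7 and 123.2 to 178.4, 178.9 and 164.5 CPM (0.55). GINS4 of the replicative helicase rose by 0.80, the primase subunit PRIM1 by 0.74 and the loading factor MCM10 by 0.61 on the log2 scale. Of 35 promoters found for the list, 6 held the E2F-type letters TTTGGCGC (17.1%, against 0.659% of all promoters) and 9 the letters TTTCCCGC (25.7%, against 1.66%), counted separately on both strands. Replication-dependent histone genes gave 19 rises and no fall among 23, with a median of 0.69. H1-2 went from 202.4, 235.2 and 235.8 to 361.3, 388.6 and 334.4 CPM (0.69), H2BC18 rose by 1.09 and H3C13 by 1.15. Reads of histone copies can be split between genes. Against the vector control, 40 of the 41 replication genes and 22 of the 23 histone genes were lower in the shRNA control.

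Regulators of the entry into S phase rose more often than they fell. Of 23 genes 16 rose and 3 fell, with a median of 0.40, and 1 fell without depletion replicate 1. MYC had 93.08, 97.34 and 103.5 CPM in the control and 153.2, 162.6 and 156.4 CPM after depletion (log2 fold change 0.68, edgeR adjusted p = 1.78e-06), and averaged 305.9 CPM in the vector control. E2F1 went from 33.69, 35.9 and 36.5 to 47.33, 51.52 and 45.17 CPM (0.44, adjusted p = 0.00594), beside 71.43 CPM in the vector control. CDKN1A, which encodes the CDK inhibitor p21, went from 123.4, 128.8 and 116.4 to 70.78, 72.2 and 64.65 CPM (-0.83, adjusted p = 2.76e-06), beside 189.6 CPM in the vector control. MYC and E2F1 in the depleted cells thus lay between the control lines, and CDKN1A below both. CCND1, cyclin D1, differed little (269.0, 276.4 and 273.9 against 268.5, 267.9 and 263.1 CPM, adjusted p = 0.696). Among the other CDK inhibitors CDKN2A rose, from 7.319, 9.618 and 9.86 to 14.36, 13.59 and 14.42 CPM (0.66), as did CDKN2C (0.45), and CDKN1C fell from 8.073, 9.537 and 8.897 to 5.74, 5.433 and 5.397 CPM (-0.68).

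**Figure D3:**
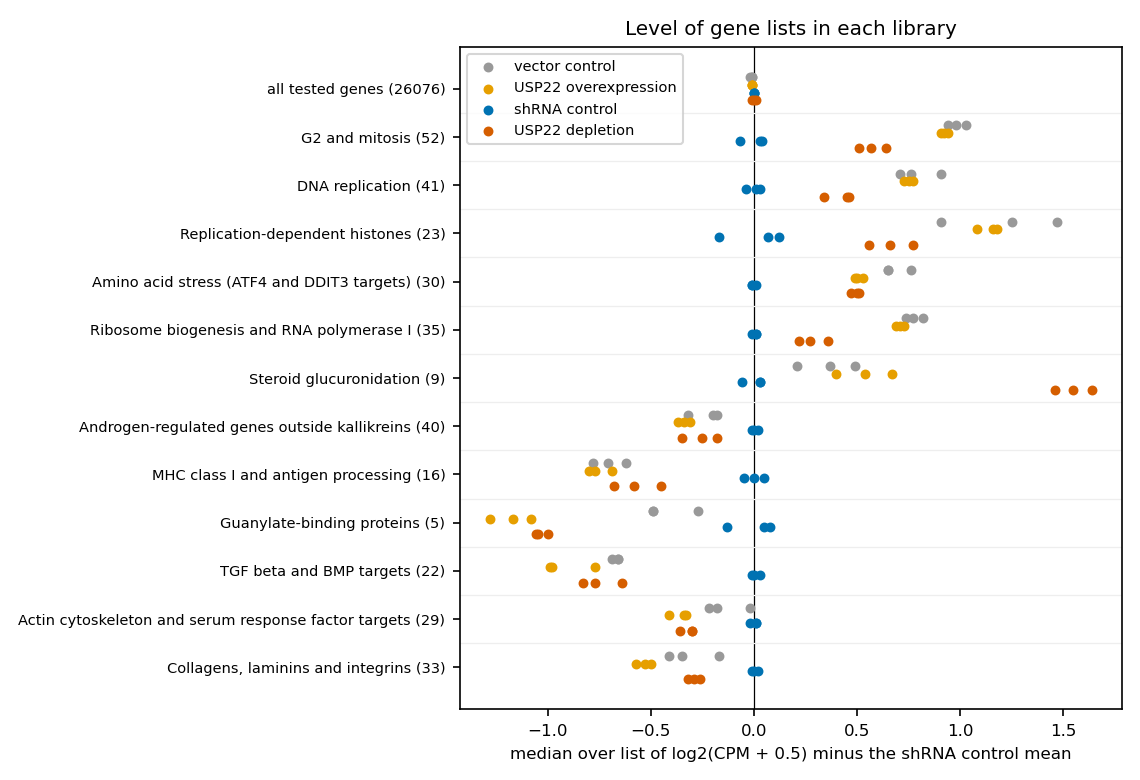
Median over the tested members of log2(CPM + 0.5) relative to the shRNA control mean (horizontal axis) for all tested genes and 12 gene lists (rows, with the number tested); each point is a library, coloured by group. G2 and mitosis genes after depletion, at 0.51 to 0.64, lie between the shRNA control and the vector control (0.94 to 1.03), whereas steroid glucuronidation genes, at 1.46 to 1.64, lie above both and guanylate-binding protein genes, the lowest at -1.06, below both.

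DNA repair genes rose more often than they fell. Homologous recombination and Fanconi genes gave 22 rises and no fall among 35 (median 0.35), among them the helicase BLM, from 12.42, 12.71 and 12.75 to 20.99, 22.85 and 21.41 CPM (0.79), EXO1, FANCI and FANCD2. Nucleotide excision repair gave 6 rises and 2 falls among 24 (median 0.11), beside 13.4% and 14.9% of tested protein-coding genes. Its damage sensor DDB2, also a p53 target, went from 14.83, 14.54 and 14.79 to 25.24, 26.42 and 22.57 CPM (0.75), and ERCC6, of transcription-coupled repair, fell by 0.35 on the log2 scale. XPC, the recognition factor of this pathway, had 57.43, 56.28 and 55.8 CPM and then 59.52, 61.1 and 56.76 CPM, values that overlapped (log2 fold change 0.07, edgeR adjusted p = 0.592). Base excision and mismatch repair gave 7 rises among 26, with 4 of them without depletion replicate 2, and end joining and checkpoint genes 7 rises and 1 fall among 21, among them the kinases CHEK1 (0.44), WEE1 (0.40) and PRKDC (0.28). Without vector control replicate 3 the rises were 10 in nucleotide excision repair and 14 in base excision and mismatch repair.

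The 25 tested p53 targets gave 10 rises and 2 falls, with a median of 0.26, while CDKN1A, the best known of them, fell. GDF15, a secreted stress cytokine, rose by 0.70 on the log2 scale. The rises numbered 16 without vector control replicate 3. Among 15 genes of the BCL2 family BCL2 itself, which blocks apoptosis, rose by 0.57, and BOK, which promotes it, went from 18.96, 16.77 and 18.33 to 7.619, 8.654 and 7.309 CPM (-1.20). In all 3 members of that family rose and 4 fell, and the rises numbered 5 without vector control replicate 3.

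Amino acid stress genes, the targets of ATF4 and DDIT3 that supply amino acids when they run short, gave 24 rises and no fall among 30, with a median of 0.48. PSAT1, of serine synthesis, had 158.8, 169.3 and 165.8 CPM in the control and 319.4, 318.1 and 321.6 CPM after depletion, a 1.94-fold rise (edgeR adjusted p = 8.47e-09), against 319.6, 312.7 and 283.1 CPM in the vector control. ASNS, asparagine synthetase, went from 108.4, 109.1 and 107.3 to 193.9, 201.2 and 185.1 CPM (log2 fold change 0.84, adjusted p = 1.7e-08), beside 188.9 CPM in the vector control. For PSAT1 and ASNS the depleted level was thus close to that of the vector control. CTH, of cysteine synthesis, rose by 1.03, the secreted glycoprotein STC2 by 0.84 and MTHFD2, of mitochondrial folate metabolism, by 0.68, while CBS and SLC3A2 were not called. ATF4 itself went from 249.3, 248.9 and 245.7 to 331.8, 361.7 and 313.6 CPM (0.44, adjusted p = 0.000306), beside 509.8 CPM in the vector control. The list's median level was 0.50, 0.51 and 0.47 log2 units above the shRNA control in the depletion libraries and 0.65, 0.65 and 0.76 above it in the vector control libraries. The amino acid response element, searched as TGATGNAA on both strands, occurred in 5 of the 25 promoters found for the list, 20%, against 3.67% of all promoters. The list was made of ATF4 and DDIT3 targets, so this share describes the list and not the depletion. The promoter of ASNS (chr7:97872379-97872658, minus strand, GRCh38.p14, RefSeq), the best known example, is printed with the element in capitals. ASNS was among the called members with the smallest edgeR p whose printed window holds the element.
ASNS: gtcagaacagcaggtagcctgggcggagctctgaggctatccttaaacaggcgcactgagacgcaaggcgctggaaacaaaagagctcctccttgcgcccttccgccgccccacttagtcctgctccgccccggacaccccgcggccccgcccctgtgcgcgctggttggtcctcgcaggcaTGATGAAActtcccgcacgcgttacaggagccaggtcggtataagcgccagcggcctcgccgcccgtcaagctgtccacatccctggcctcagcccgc

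The machinery of protein synthesis rose beside them, by smaller amounts. Of 20 aminoacyl transfer RNA synthetases 13 rose and none fell (median 0.30), among them EPRS1, from 582.3, 578.6 and 580.1 to 838.6, 886.3 and 815.7 CPM (0.55), and GARS1 (0.54). Ribosome biogenesis gave 23 rises and no fall among 35 (median 0.27), among them POLR1B, a subunit of RNA polymerase I, which went from 68.87, 69.53 and 69.78 to 94.56, 96.39 and 92.58 CPM (0.45). EIF4EBP1, the repressor of cap-dependent translation and an ATF4 target, went from 49.99, 53.62 and 52.51 to 94.76, 102.2 and 94.31 CPM (0.90, edgeR adjusted p = 9.28e-07), and 10 of 37 initiation factors and regulators rose while 2 fell. Without vector control replicate 3 these counts were 20 and 4. The cytosolic ribosomal proteins had a median of 0.18, and 33 of 76 rose. That count rested on single libraries: it was 14 without shRNA control replicate 1 or 3, 16 without depletion replicate 2, 50 without depletion replicate 3 and 61 without vector control replicate 3. Purine, pyrimidine and folate synthesis gave 21 rises and no fall among 26 (median 0.27). All 76 ribosomal protein genes were lower in the shRNA control than in the vector control, and 33 of the 35 ribosome biogenesis genes were.

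Chaperone genes were called in both directions. In the endoplasmic reticulum none of 32 unfolded protein response genes rose and 9 fell (median -0.12). HSPA5, the lumenal chaperone BiP, had 711.5, 783.7 and 844.5 CPM in the control and 515.6, 511.4 and 529.2 CPM after depletion (-0.59, edgeR adjusted p = 3e-05), and DNAJB9 fell by 0.56 on the log2 scale, a call lost without shRNA control replicate 1 or 2 and without any 1 depletion replicate (adjusted p 0.0509 to 0.0711), while HSP90B1 and CANX were not called. The falls numbered 3 to 6 when a replicate of either group was left out and 18 without vector control replicate 3. They were 3 without shRNA control replicate 2, 3 without depletion replicate 1 and 3 without depletion replicate 3. In the cytosol and mitochondria 10 of 24 heat shock chaperones rose and 3 fell, among the former TCP1 (0.49) of the chaperonin and HSPD1 (0.41) and among the latter HSPB8 (-2.03). Whether the chaperone lists differ from each other was not tested. The rises were 6 without shRNA control replicate 3 or without depletion replicate 2.

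Interferon-inducible genes fell, most of all the guanylate-binding proteins, large GTPases that restrict intracellular pathogens. All 5 tested members fell, with a median log2 fold change of -2.44. GBP2 had 29.03, 28.39 and 24.99 CPM in the control and 5.331, 4.487 and 4.688 CPM after depletion (-2.51, SE 0.09, edgeR adjusted p = 8.1e-11), against 28.15, 27.88 and 30.53 CPM in the vector control. GBP1 went from 19.63, 21.98 and 20.3 to 4.535, 3.417 and 3.414 CPM (-2.44, adjusted p = 2.25e-10), against 12.22, 13.37 and 11.66 CPM in the vector control. Both lay below both control lines after depletion. GBP3 went from 7.346, 7.263 and 6.304 to 3.227, 3.087 and 3.113 CPM (-1.15), above its vector control mean of 1.656 CPM. GBP4 and GBP5 were at or below 0.3233 CPM in every shRNA library, and the call of GBP5 (-1.48, adjusted p = 0.00789) was lost without shRNA control replicate 1 (0.064).

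The genes that present antigen on MHC class I gave 12 falls and no rise among 16, with a median of -0.66. HLA-B had 90.38, 88.12 and 82.65 CPM in the control and 33.25, 35.1 and 31.6 CPM after depletion (-1.39, edgeR adjusted p = 8.68e-10), beside 26.3 CPM in the vector control. HLA-C went from 205.0, 213.9 and 205.3 to 97.55, 106.4 and 92.66 CPM (-1.07), beside 109.2 CPM. TAPBP, of the peptide-loading complex, went from 109.5, 107.1 and 108.6 to 66.54, 64.4 and 63.59 CPM (-0.74), and the peptide transporter TAP1 from 34.68, 35.19 and 32.77 to 20.75, 22.24 and 19.64 CPM (-0.71), beside 34.36 CPM. The immunoproteasome subunits PSMB8 (-2.13) and PSMB9 (-1.44) also fell, from at most 1.504 CPM. The transactivator NLRC5 (-0.26, adjusted p = 0.0867) and TAP2 were not called. The HLA levels after depletion were near those of the vector control, and TAP1 fell below it. HLA genes share sequence and are polymorphic, so reads may be split between them.

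Other interferon-stimulated genes fell less uniformly, 15 lower and 2 higher among 41, with a median of -0.24. IFI35 went from 9.438, 9.28 and 8.815 to 3.677, 3.849 and 3.787 CPM (-1.28), PARP14 fell by 0.86 and the secreted glycoprotein LGALS3BP by 0.82 on the log2 scale. The signalling factor STAT2 was not called. In the shRNA control 30 of the 41 were higher than in the vector control and 2 lower. The falls numbered 9 without depletion replicate 3. The interferon-stimulated response element, searched on both strands as 2 copies of GAAA separated by 2 bases of any kind, occurred in 7 of the 13 promoters found for the MHC class I list (53.8%) and in 3 of the 3 found for guanylate-binding proteins (100%), against 3.65% of all promoters. The promoters of GBP1 (chr1:89065179-89065458) and GBP3 (chr1:89022837-89023116), both on the minus strand of GRCh38.p14 in RefSeq, are printed. They were the called members of the list with the smallest edgeR p whose printed window holds the element. Both carry the element with the same 10 letters. It begins at position -127 from the start in GBP1 and 2 bases after the first base of the transcript in GBP3. Capitals mark it.
GBP1: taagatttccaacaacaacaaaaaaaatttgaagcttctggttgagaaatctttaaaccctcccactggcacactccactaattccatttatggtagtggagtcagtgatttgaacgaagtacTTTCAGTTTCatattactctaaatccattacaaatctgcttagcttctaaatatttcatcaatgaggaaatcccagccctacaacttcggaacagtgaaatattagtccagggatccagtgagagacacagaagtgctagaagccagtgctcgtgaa
GBP3: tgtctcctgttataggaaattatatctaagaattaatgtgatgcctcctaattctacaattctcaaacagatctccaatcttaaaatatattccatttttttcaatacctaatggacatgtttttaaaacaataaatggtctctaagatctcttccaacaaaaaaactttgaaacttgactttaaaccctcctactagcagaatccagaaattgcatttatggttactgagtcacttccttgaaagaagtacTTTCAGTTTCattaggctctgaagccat

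Targets of TGF beta and BMP signalling fell, and so did parts of the pathway. Of 22 targets 14 fell and 1 rose, with a median of -0.86. ID1, an inhibitor of basic helix-loop-helix factors and a direct BMP target, had 102.3, 108.5 and 97.19 CPM in the control and 30.43, 30.73 and 28.09 CPM after depletion (-1.79, edgeR adjusted p = 1.91e-10), beside 33.95 CPM in the vector control. SMAD7, the inhibitory SMAD that the pathway induces, went from 23.2, 24.93 and 21.8 to 10.93, 10.22 and 10.11 CPM (-1.16), and ATOH8 from 2.973, 3.113 and 3.177 to 0.5413, 0.3705 and 0.5169 CPM (-2.70). The depletion values of these genes lay below every control value. Of 25 ligands, receptors and SMADs 10 fell and 2 rose (median -0.25). SMAD9, a BMP-responsive SMAD, went from 74.42, 74.48 and 67.44 to 35.85, 32.6 and 35.03 CPM (-1.06), the receptor BMPR1A fell by 0.62 and the activin subunit INHBB rose by 0.58 on the log2 scale. SMAD4, the shared partner, and SMAD5 were not called. In the shRNA control 17 of the 22 targets were higher than in the vector control and 2 lower, and the median target stood at -0.64, -0.83 and -0.77 in the depletion libraries and at -0.69, -0.66 and -0.66 in the vector control libraries.

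Genes of the contractile cytoskeleton and the matrix fell too. Of 29 actin cytoskeleton and serum response factor targets 15 fell and 1 rose (median -0.34). MYL9, a myosin light chain, had 4.005, 5.13 and 4.541 CPM in the control and 0.3779, 0.3396 and 0.3606 CPM after depletion, 0.0792 of the control level (log2 fold change -3.66, edgeR adjusted p = 1.71e-10), beside 3.075 CPM in the vector control. CNN2, a calponin, went from 70.9, 68.75 and 72.31 to 37.09, 36.11 and 36.96 CPM (-0.94), the enteric actin ACTG2 fell by 2.49 and the tropomyosin TPM4 by 0.67 on the log2 scale. The cytoplasmic actin ACTG1 (0.02, adjusted p = 0.828) and the actin-severing CFL1 were not called. Markers of fibroblasts and smooth muscle outside this list summed to 18.6 to 19.5 CPM in the control and 15.6 to 19.7 CPM after depletion, with 5 of 9 tested. Their part in the result was not tested.

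Among collagens, laminins and integrins 19 of 33 fell and 4 rose (median -0.32). COL12A1, a collagen of the fibril surface, went from 15.27, 13.75 and 14.9 to 4.269, 4.641 and 4.279 CPM (-1.74), and the laminin chain LAMA3 from 309.4, 312.5 and 316.9 to 168.2, 161.4 and 172.1 CPM (-0.90). ITGB6, the beta subunit of an integrin that activates latent TGF beta, fell by 1.97 and ITGA1 by 0.91 on the log2 scale, and the abundant subunits ITGAV and ITGB5 were not called. The falls numbered 12 without shRNA control replicate 1 or 2 and without depletion replicate 1 or 2. Cell junction genes moved both ways, 7 up and 6 down of 27. The desmosomal cadherin DSC3 went from 13.12, 13.03 and 12.23 to 3.769, 3.859 and 3.486 CPM (-1.79), far below its 69.26 CPM in the vector control, desmoplakin (DSP) fell by 0.34, and P-cadherin (CDH3) rose by 0.68. The junction rises were 4 without shRNA control replicate 3 or depletion replicate 2, and the falls 12 without vector control replicate 3.

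Immediate early genes and feedback regulators of MAP kinase signalling gave 14 falls and 2 rises among 34 (median -0.26). SPRY4, a receptor tyrosine kinase antagonist, went from 4.831, 5.27 and 4.592 to 0.9192, 0.8027 and 0.6972 CPM (-2.60), and DUSP2, a nuclear MAP kinase phosphatase, from 55.91, 58.05 and 57.93 to 19.4, 22.42 and 19.7 CPM (-1.48). DUSP4, a phosphatase of the same family, went the other way, from 11.7, 11.53 and 11.8 to 21.68, 24.35 and 21.59 CPM (0.95). JUN and JUND were not called. The falls numbered 9 without shRNA control replicate 1. In the insulin-like growth factor axis 2 of 14 fell and 1 rose, near the shares of all tested genes (10.4% lower, 9.4% higher). The falls were those of the receptor IGF1R, from 107.5, 100.7 and 103.9 to 42.94, 38.67 and 42.07 CPM (-1.34, edgeR adjusted p = 1.48e-09), and the binding protein IGFBP3, from 41.03, 43.1 and 38.33 to 14.42, 14.78 and 12.81 CPM (-1.54). IGF1R after depletion was below its 62.13 CPM in the vector control, while IGFBP3 stayed above its 7.652 CPM. The insulin receptor INSR and IGF2R were not called. Without vector control replicate 3 the falls in this list were 4. Of 29 WNT and NOTCH genes 10 fell, including the receptor FZD5 (-0.87) and the NOTCH effector HEY1 (-1.10), and 3 rose, including the ligand JAG1 (0.43).

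**Figure D4:**
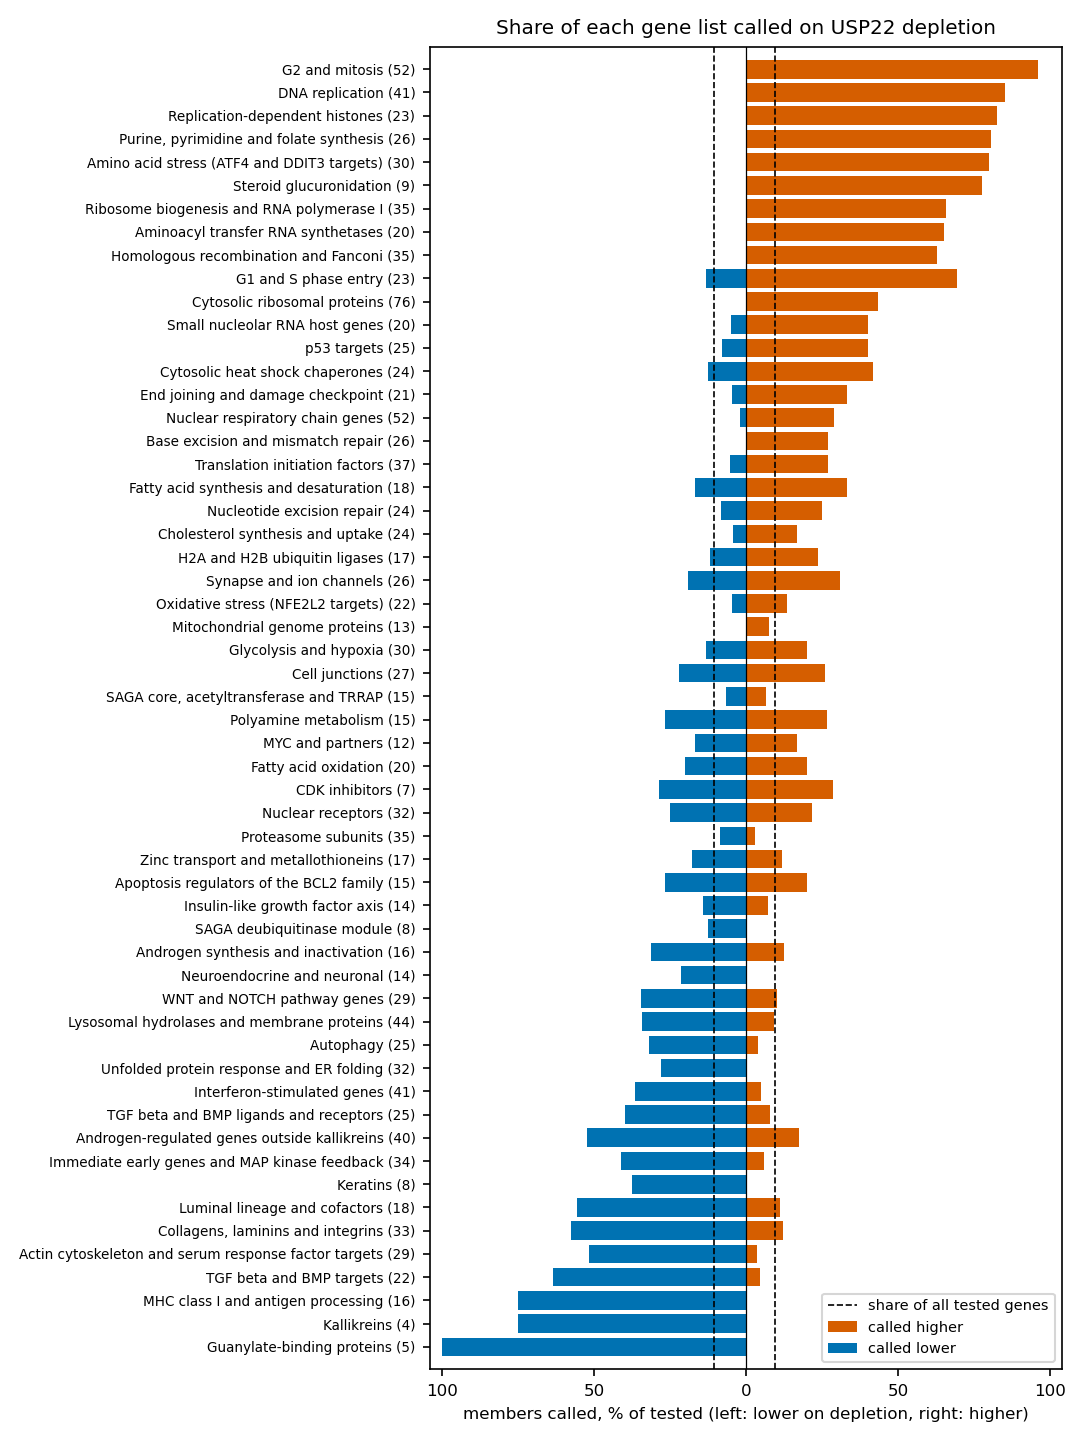
Share of tested members called higher (right, orange) and lower (left, blue) on USP22 depletion in percent (horizontal axis) for each gene list (rows), with dashed lines at the shares of all tested genes, 9.4% higher and 10.4% lower. Division, replication, histone, amino acid stress and steroid glucuronidation lists extend to the right, and guanylate-binding protein, MHC class I, TGF beta target and matrix lists to the left.

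Metabolic and organelle lists moved less. Lysosomal hydrolases and membrane proteins gave 15 falls and 4 rises among 44 (median -0.16). TFEB, which drives lysosomal genes, went from 12.72, 12.45 and 13.46 to 6.342, 6.185 and 6.419 CPM (-1.03), and the cholesterol exporter NPC1 fell by 0.55. The falls in this list numbered 8 without shRNA control replicate 1 or depletion replicate 1. Of 25 autophagy genes 8 fell and 1 rose, and 16 fell without vector control replicate 3. Nuclear genes of the respiratory chain gave 15 rises and 1 fall among 52 (median 0.15), a count that was 6 without depletion replicate 2, 7 without shRNA control replicate 1 or 3, 8 without depletion replicate 1 and 31 without vector control replicate 3. Of 17 zinc transport and metallothionein genes 2 rose and 3 fell (median 0.07), near the shares of tested protein-coding genes (13.4% higher, 14.9% lower). The rises were those of the metallothioneins MT2A, from 15.07, 16.17 and 16.51 to 32.06, 37.38 and 31.37 CPM (1.08), and MT1X (0.91). Polyamine genes went 4 up, including ODC1 (0.39), and 4 down, including the catabolic SAT1 (-0.64). The rises numbered 2 without shRNA control replicate 1 or 2 and without depletion replicate 2. Fatty acid synthesis (6 up, 3 down of 18) and oxidation (4 up, 4 down of 20) were called in both directions. Their share of calls was above the 19.8% of all tested genes, which include noncoding genes and pseudogenes that were called less often. Cholesterol synthesis (4 up, 1 down of 24) and targets of NFE2L2 (3 up, 1 down of 22) were called about as often as all tested genes. That is less often than tested protein-coding genes, of which 13.4% rose and 14.9% fell. Proteasome subunits (1 up, 3 down of 35) were called less often than either. These counts rested on single libraries. Without vector control replicate 3 they were 5 up and 7 down for cholesterol synthesis, 6 and 6 for fatty acid oxidation, 9 and 5 for the proteasome and 7 and 3 for NFE2L2 targets. The proteasome gave 6 rises without depletion replicate 3, fatty acid oxidation 1 rise without depletion replicate 2, and NFE2L2 targets 1 rise without shRNA control replicate 1 or 3 or depletion replicate 1.

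Genes of synapses and ion channels changed in both directions, 8 up and 5 down of 26. KCNJ3, an inwardly rectifying potassium channel, went from 46.71, 46.94 and 38.97 to 95.69, 99.02 and 95.56 CPM (log2 fold change 1.13), beside 12.27 CPM in the vector control. GRIN3A, a glutamate receptor subunit, went from 49.88, 51.99 and 55.17 to 16.51, 15.43 and 16.31 CPM (-1.70). The falls numbered 3 without shRNA control replicate 2 or depletion replicate 1 and 8 without vector control replicate 3. Among 32 further nuclear receptors 7 rose and 8 fell, with log2 fold changes of 1.66 for NR2F1, from under 1 CPM, and -0.59 for PPARD.

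Some changed genes lay side by side. Among tested protein-coding genes in GENCODE order, 25 runs of at least 3 neighbours were all called in the same direction at 1.5-fold or more. These runs were looked up after the values were seen and were not tested against chance. The guanylate-binding proteins GBP3, GBP1, GBP2, GBP4 and GBP5 on chromosome 1 formed a run of 5 with a median log2 fold change of -2.44, and the UGT2B genes on chromosome 4 formed a run of 4 (median 1.94) and another of 3 (1.73). On chromosome 6 histone genes made 3 runs of rises and antigen presentation genes 3 runs of falls, the last of them PSMB8, PSMB9 and TAP1 (-1.44). The longest run was 6 genes on chromosome 19, FPR3, ZNF577, ZNF649, ZNF613, ZNF350 and ZNF615 (-0.92), most of them zinc finger genes. Olfactory receptor genes on chromosome 11 (OR52N1, OR52N2, OR52E6, OR52E8 and OR52E4, -1.38), cytochrome genes on chromosome 1 (CYP4B1, CYP4X1 and CYP4Z1, -2.16) and epidermal genes there (HRNR, FLG and FLG2, -1.83) fell from low levels. In the last group FLG, profilaggrin, had 2.622, 2.693 and 3.147 CPM in the control and 0.766, 0.6689 and 0.9496 CPM after depletion.

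Raising USP22 against the vector control, a comparison that shares no library with the depletion, called 1072 genes, 4.11% of those tested, and the difference between the effects of depletion and overexpression was called for 2840 genes (10.9%). Upward and downward, these were 1.51% and 2.6% of tested genes on overexpression and 5.98% and 4.91% for the difference. Several of the genes that depletion changed most changed the same way when USP22 was raised. CLU had log2 fold changes of -2.18 on depletion and -2.47 on overexpression, and the difference missed the threshold (edgeR adjusted p = 0.172). MYL9 had -3.66 and -3.20 (0.243), RALYL 1.57 and 1.84 (0.195) and COL12A1 -1.74 and -1.76 (0.941). ACTA2 fell in both, more on depletion (-2.84 and -1.58, adjusted p of the difference 6.63e-05), as did GBP2 (-2.51 and -1.28, 1.24e-05), ID1 (-1.79 and -0.95, 0.000109) and KLK3 (-2.13 and -0.51, 4.07e-07). Other genes differed between the perturbations: UGT2B11 rose by 2.45 on depletion and by 0.30 on overexpression (difference 6.67e-09), while CENPF (0.76 and -0.05, 1.26e-05) and PSAT1 (0.96 and -0.04, 1.26e-06) rose on depletion and were not called on overexpression. Of the 9 tested steroid glucuronidation genes, 4 were also called higher on overexpression and none lower (median 0.30).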

How the data were processed

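RNA was measured by sequencing in 12 LNCaP libraries. Per the labels' protocols, the kit kept strand and used total RNA. The authors deposited raw read counts for 63677 Ensembl gene IDs, and the submitters' processing notes name hg19, featureCounts 1.5.0-p3, STAR 2.5.2a and DESeq2 1.14.1. Which annotation release, strand setting or rule for shared reads was used is not stated there. Symbols were found for 39699 IDs, and IDs without one held 7.71% of reads. The annotation used for symbols and gene order is of another build, so counted genes carry no coordinates. Printed promoters are RefSeq sequences of GRCh38.p14.

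The analysis used edgeR 4.0.16 (R 4.3.3, with limma 3.58.1): filterByExpr, TMM scaling, and glmQLFit and glmQLFTest over 4 groups with 8 residual degrees of freedom, adjusted by Benjamini-Hochberg over 26076 genes at a threshold of 0.05. CPM values use the scaled library sizes. In 60 lists, 1523 of 1564 entries were matched and 1429 tested. The members and lists were chosen with earlier results of these data known. Named genes were the targeted gene, the 15 largest rises and falls among called genes with a mean of at least 5 CPM and replicates that do not overlap, the 6 rises and 6 falls with the largest CPM difference among called genes changed at least 1.5-fold, up to 5 called and 2 not called members of each list, any member of lists of up to 12 tested genes, and preset genes. A few genes that this rule names are counted in the totals and are not reported here. No pair of replicates agreed within counting noise, so each was kept as a library of its own. The procedure was tested on simulated data. List levels by library are medians of log2 CPM with 0.5 CPM added. The settings varied were the scaling (RLE), the filter (none, or 1 CPM in 3 libraries), the tool (DESeq2 1.42.0, limma voom), the 6 shRNA libraries alone, a replicate block, leaving out replicates or the 20 most abundant genes, and, added after seeing the data, protein-coding genes alone. Replicate numbers 1 to 3 come from the labels, which do not say that they pair samples.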

Additional observations from a re-analysis of the deposited data

How the results depend on the processing

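No called gene named in the text was reversed under the alternatives run. The median of the androgen synthesis list, 0.01, was -0.05 without shRNA control replicate 1. The count of 5172 called genes was 3053 at an adjusted p under 0.01, 8115 with the 6 shRNA libraries alone (4037 higher) and 8359 without vector control replicate 3 (4077 higher, 4282 lower), while leaving out a replicate of either shRNA group gave 3523 to 4403 (1812 to 2463 higher, 1711 to 1952 lower). The lowest counts of falls were 1711 without shRNA control replicate 1 and 1741 without depletion replicate 1. Over all replicates left out, the difference between the depletion and overexpression effects was called for 1909 genes without shRNA control replicate 1 up to 5320 without vector control replicate 3. Genes at least 2-fold changed numbered 352 with the strict filter and 518 with protein-coding genes alone, fits that test fewer low genes. More genes rose than fell under RLE scaling (2606 against 2571), no filter (3106 against 2603), the strict filter (2689 against 2511), DESeq2 (2901 against 2801) and the fit of protein-coding genes (2638 against 2376). More fell than rose by limma voom (2936 against 2568) and in the shRNA libraries alone (4078 against 4037). The replicate numbers did not pair the samples: same-numbered deviations correlated at -0.022, 0.068 and 0.064, and with the replicate number as a block 5272 genes were called (2512 higher, 2760 lower, 781 at least 2-fold), with 11308 for the shRNA control against the vector control and 2959 for the difference, and USP22 at -0.89. Depletion rests on 1 shRNA, so effects of that sequence and of USP22 loss cannot be told apart, nor can differences that the cell population carries.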

Other observations

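At the low end, 15 tested genes had 0 reads in all 3 depletion libraries, and 11 of them were called. They were picked out after their values were seen, fold changes are bounds against a floor of 3 reads over the 3 libraries, and intervals and floors cover counting error only. GNAT3, the taste receptor transducin, had 298 reads in the 3 shRNA control libraries together and 0 after depletion, at least 93.8-fold lower, but also 0 in the vector control and 4 in the overexpressing cells. MORC1, a germline gene, had 153 and 0 reads (at least 48.2-fold lower), with 4 and 6 in the other groups, and LRRK2, a kinase, 75 and 0 (at least 23.6-fold), with 2 in each of the others. For these 3 genes the shRNA control was the group that stood apart.

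A set of neighbours on chromosome 17 showed another pattern. In GENCODE order, a long noncoding RNA (ENSG00000264734) and the pseudogenes PDLIM1P3, GTF2IP6, VN1R71P and TUFMP1 follow each other, ahead of WSB1. ENSG00000264734 had 200, 84 and 166 reads in the vector control, overexpression and shRNA control groups and 0 after depletion, at least 52.2-fold below the shRNA control. GTF2IP6 had 201, 89 and 131 reads and 0 after depletion (at least 41.2-fold lower), VN1R71P 82, 38 and 40 and 0 (at least 12.6-fold), and PDLIM1P3, which was too low to be tested, 7, 9 and 6 and 0. TUFMP1 had 1112, 421 and 550 reads and 6 after depletion. On either side the reads did not vanish: ENSG00000265246, next to TUFMP1, had 82 reads in the shRNA control and 50 after depletion, ENSG00000264431 had 71 and 36, and WSB1 had 34672 and 25336. All 5 neighbours had reads in the other 3 groups, and after depletion TUFMP1 alone had any. The cause was not tested.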
